A study of Homo sapiens with 18 samples.

Results

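Histone mRNAs were followed through 18 exon arrays of RNA from the established human astrocytoma line U251-MG, grown in culture. The genes were those whose transcript cluster (the array's unit for 1 gene) carried a single platform symbol naming either a numbered histone cluster gene (H2AC, H2BC, H3C or H4C) or a numbered linker histone gene (H1), with the brightest transcript cluster standing for the gene. They were 53 of the 14232 genes with such a symbol, made up of 9 H1, 11 H2A, 13 H2B, 9 H3 and 11 H4 genes. A further 5 histone transcript clusters carried several symbols and were left out. Cells had received the vehicle DMSO or 500 µM arsenite, an inducer of oxidative stress that halts translation initiation and drives assembly of cytoplasmic stress granules, and RNA was collected after 30 min. It came from the lysate (input) or was pulled down with an antibody to TIAR (written Tial in some labels) or to G3BP1, both RNA-binding proteins found in stress granules (RNA immunoprecipitation, RIP). The 3 kinds of RNA from DMSO-treated and from arsenite-treated cells made 6 groups of 3 arrays, labelled as biological replicates. All share the line and carry no engineered allele in the labels, and no precipitate with a control antibody was analysed here. Values are log2 RMA signals, and a RIP value shows the share of an mRNA in the precipitated RNA, not how much RNA the antibody recovered.

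Core histones H2A, H2B, H3 and H4 form the protein spool of the nucleosome, and linker histone H1 binds where DNA enters and leaves it. Most of these genes are copied in S phase, when new DNA must be packaged, from short genes without introns, and their mRNAs end in a conserved stem-loop instead of a poly(A) tail. The stem-loop is bound by SLBP, which serves in 3′ end formation and translation, and the mRNAs are degraded when DNA synthesis stops. Poly(A)-binding protein, which joins most mRNAs to translation factors, has no tail to bind on them. H1-10 is expressed independently of replication and its mRNA is polyadenylated, H2BC21 can also give polyadenylated mRNA, and H1-6, H1-7, H1-8, H2AC1 and H2BC1 are known from germ cells.

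The promoters of the genes show what the classes share in sequence outside the measurements. RefSeq promoter entries on GRCh38.p14 were found for 48 of the 53 genes. Of these 40 lie on chromosome 6, 4 on chromosome 1 and 2 each on chromosomes 3 and 12. The 120 bases before the annotated start are given for 7 genes, 5′ to 3′ on the gene's strand. H1-5, H2AC15, H2BC3, H3C10 and H4C13 had the lowest difference between unstressed TIAR RIP and input within their class among genes with an entry, and H2BC21 and H1-10 can give polyadenylated mRNA. Capitals mark 4 motifs found on either strand. The TATA box was searched as TATAAA. The box named for its letters is CCAAT. The octamer is ATTTGCAT. The H1 box is AAACACA.
H1-5: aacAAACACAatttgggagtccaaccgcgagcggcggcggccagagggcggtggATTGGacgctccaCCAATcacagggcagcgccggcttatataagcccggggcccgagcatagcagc
H2AC15: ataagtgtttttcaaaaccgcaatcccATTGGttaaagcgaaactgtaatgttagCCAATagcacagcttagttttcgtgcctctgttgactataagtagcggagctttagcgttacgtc
H2BC3: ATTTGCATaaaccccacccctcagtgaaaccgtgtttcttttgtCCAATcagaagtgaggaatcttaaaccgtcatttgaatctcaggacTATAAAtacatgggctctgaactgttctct
H3C10: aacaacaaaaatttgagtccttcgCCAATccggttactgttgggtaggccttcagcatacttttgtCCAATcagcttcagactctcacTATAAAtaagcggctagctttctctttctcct
H4C13: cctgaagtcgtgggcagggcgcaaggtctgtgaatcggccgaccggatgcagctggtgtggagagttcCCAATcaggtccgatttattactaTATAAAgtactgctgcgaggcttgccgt
H2BC21: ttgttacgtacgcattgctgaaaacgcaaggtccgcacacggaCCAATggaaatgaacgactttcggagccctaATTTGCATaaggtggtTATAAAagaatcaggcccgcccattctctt
H1-10: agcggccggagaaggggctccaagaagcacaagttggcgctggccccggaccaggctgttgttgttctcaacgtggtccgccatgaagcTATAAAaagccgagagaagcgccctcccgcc
These stretches are chr6:27867589-27867708 (minus strand) for H1-5, chr6:27838376-27838495 (minus) for H2AC15, chr6:26043714-26043833 (minus) for H2BC3, chr6:27809931-27810050 (plus) for H3C10, chr6:27873535-27873654 (minus) for H4C13, chr1:149886683-149886802 (minus) for H2BC21 and chr3:129316287-129316406 (minus) for H1-10. In windows of 250 bases before to 50 after the start, searched on both strands with overlapping matches allowed, the octamer was in 8 of 10 H2A and 10 of 13 H2B promoters, in 0 of the H1, H3 and H4 promoters, and in 1.8% of all 27305 RefSeq promoters. The H1 box was in 7 of 9 H1 promoters, in 0 of the core histone promoters and in 5.76% of all promoters. CCAAT was in 41 of 48 histone promoters (35.7% of all promoters) but in only 3 of 9 H4 promoters, and TATAAA was in 30 of 48 (12% of all promoters). Each match describes the letters in the window and was not read as a binding site.

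Array medians ran from 7.73 to 8.07 over the 18 arrays. An array of arsenite-treated input (replicate 1) and an array of DMSO-treated G3BP1 RIP (replicate 3) stood apart: their mean correlation with the other arrays of their group, over all transcript clusters, was 0.98 for each, and their upper quartiles, 9.17 and 9.45, were the lowest of their groups. Some values are also given without both arrays. Of the marker genes checked against the label, VIM, CD44, SOX9 and EGFR lay at or above 86.6% of transcript clusters by mean signal, while the astrocyte markers S100B and AQP4 lay above 12.3% and 11.2% only. Of 10 listed astrocyte and glioma markers 9 were on the array. Listed markers of any cell type that are not named in this paragraph are not given here, so the named ones are a selection. The neuronal marker NEFL (99.3%) and the epithelial marker KRT8 (95.1%) were also high, PTPRC and EPCAM lay above 5.25% and 4.2%, and the part of other cell types in the results was not tested. Histone genes of a class have near-identical coding sequences, so a probe may read more than 1 of them and the values of single genes are uncertain to that extent. The labels give a standard array protocol from total RNA, and which primer started the copying, which bears on mRNAs without a tail, is not given in the sources used here.

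To ask which mRNAs each protein held, each RIP was compared with input from cells under the same treatment. Histone mRNAs were lower in both RIPs than in input, under DMSO and under arsenite, in all 5 classes. In the TIAR RIP of DMSO-treated cells 45 of the 53 genes passed the test as lower (limma, Benjamini-Hochberg adjusted p under 0.05 over all 22011 transcript clusters), where 23.8% of all transcript clusters did, and the median difference was -1.51 on the log2 scale against -0.05 over all. With arsenite 48 were lower in the TIAR RIP (23.5% of all; median -1.44 against -0.079). The G3BP1 RIP gave 48 lower under DMSO (19.2% of all; median -1.63 against 0.00082) and 48 with arsenite (15.2% of all; median -1.31 against 0.028). Not 1 histone gene was called higher in any of these 4 comparisons in limma, where 16.8% and 20.3% of all transcript clusters were in the TIAR RIP (DMSO, arsenite) and 20.7% and 29.3% in the G3BP1 RIP, and 0 were higher at an unadjusted p under 0.05. The comparisons of the RIPs with input share the input arrays of each treatment and are not independent of each other.

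By arrays, all 3 RIP arrays lay below all 3 input arrays for 48 genes in the TIAR RIP and 48 in the G3BP1 RIP under DMSO (33.5% and 23.7% of all transcript clusters), and for 49 and 48 with arsenite (28.8% and 19.4%). H3 genes had the deepest class median in each of the 4 comparisons, -1.81 and -1.74 in the TIAR RIP (DMSO, arsenite) and -2.13 and -1.48 in the G3BP1 RIP. H2A medians were -1.60 and -1.52 in the TIAR RIP and -1.90 and -1.30 in the G3BP1 RIP, H4 medians -1.53 and -1.17 and -1.71 and -1.32, and H2B medians -1.18 and -1.09 and -1.28 and -1.21. H1 genes had the median nearest to 0 in the G3BP1 RIP, -0.67 and -0.42, and -1.30 and -1.01 in the TIAR RIP. Differences between classes, or between genes, were not tested.

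**Figure D1:**
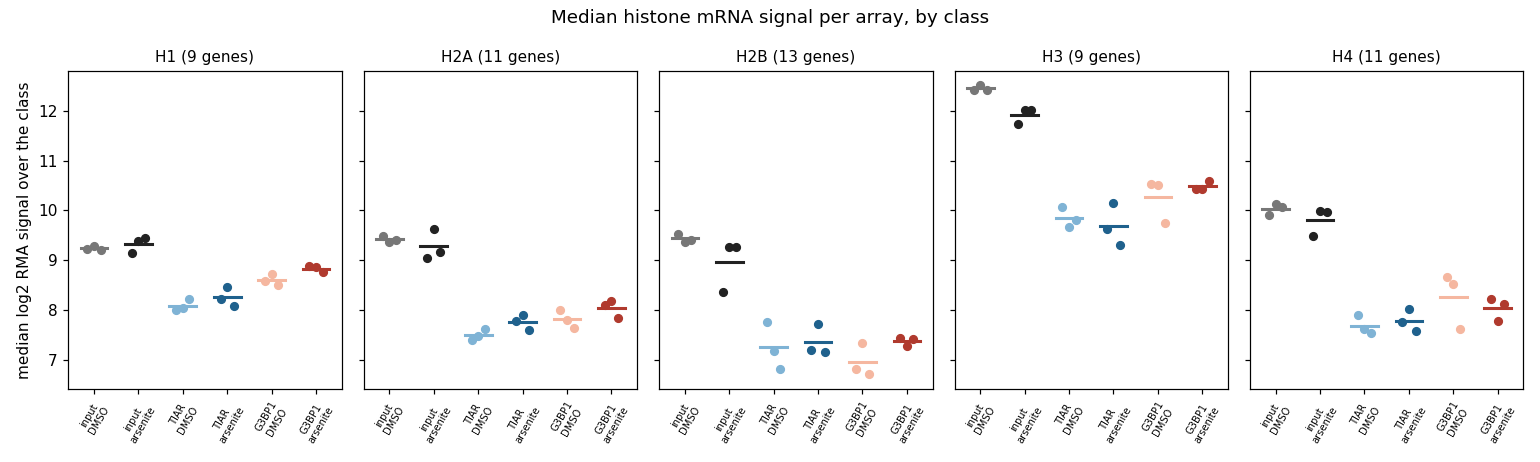
Median log2 RMA signal over the genes of each histone class (H1 9 genes, H2A 11, H2B 13, H3 9, H4 11) on each of the 18 arrays (points) with the group mean (lines), for the 3 kinds of RNA under DMSO or arsenite. Every class is highest in the input groups; the H3 median falls from 12.45 ± 0.056 in input to 9.85 ± 0.21 in the TIAR RIP and 10.26 ± 0.45 in the G3BP1 RIP under DMSO (mean ± SD, n = 3).

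The level of a whole class moved the same way on single arrays. The median signal over the 9 H3 genes was 12.45 ± 0.056 in DMSO-treated input (mean ± SD, n = 3 arrays, as for all levels here), 9.85 ± 0.21 in the TIAR RIP and 10.26 ± 0.45 in the G3BP1 RIP. For H4 the same values were 10.04 ± 0.11, 7.68 ± 0.19 and 8.27 ± 0.56, for H2A 9.42 ± 0.06, 7.49 ± 0.11 and 7.81 ± 0.18, for H2B 9.44 ± 0.084, 7.25 ± 0.48 and 6.95 ± 0.34, and for H1 9.24 ± 0.037, 8.09 ± 0.12 and 8.60 ± 0.11. In each class the RIP arrays lay below the input arrays without overlap. Levels of different classes come from different probes and were not compared.

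**Figure D2:**
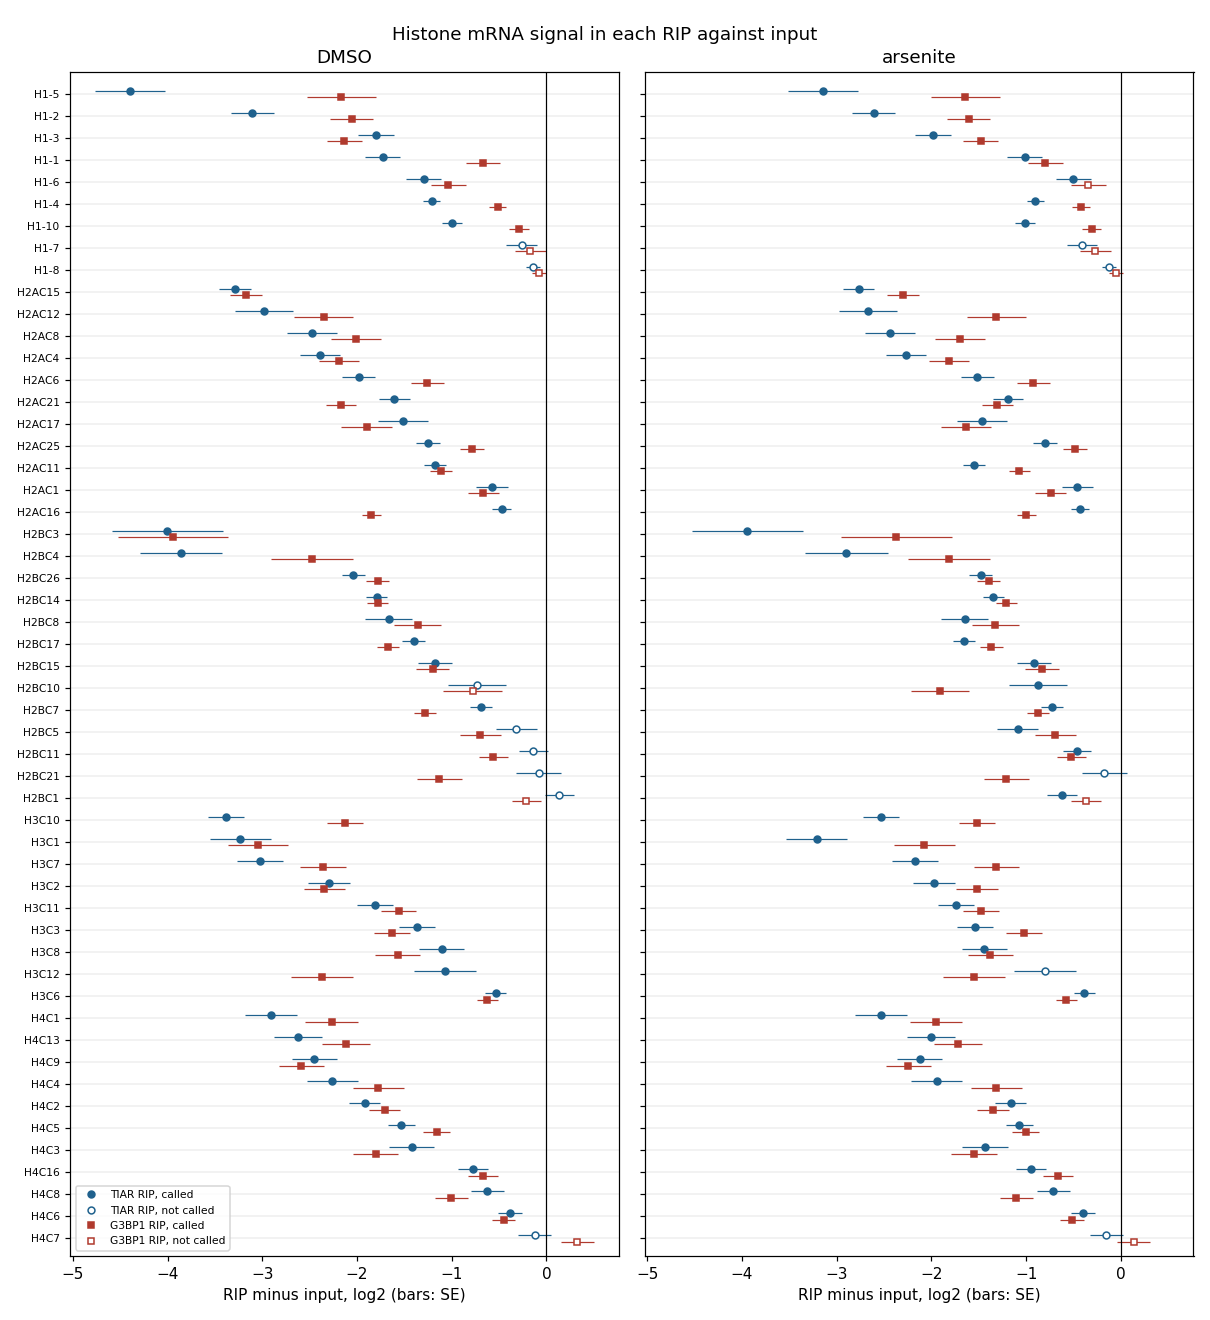
Log2 difference of each RIP from input (x axis, bars are standard errors from the fit) for the 53 histone genes (rows, by class), under DMSO (left) and arsenite (right); circles are the TIAR RIP, squares the G3BP1 RIP, and filled symbols passed the test. Nearly all symbols lie left of 0, with H1-5, H2BC3 and H2BC4 farthest left in the TIAR RIP under DMSO.

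Among linker histones the differences from input ran from the deepest of all 53 genes, in the TIAR RIP under DMSO, to near 0. H1-5 signals were 11.78, 11.76 and 11.81 in DMSO-treated input, 7.10, 7.62 and 7.44 in the TIAR RIP and 10.06, 10.30 and 8.50 in the G3BP1 RIP. The 3 groups did not overlap, and the TIAR RIP was lowest. The difference from input was -4.40 ± 0.37 in the TIAR RIP (log2 ± SE; 21.1-fold lower, adjusted p = 1.45e-07) and -2.17 ± 0.37 in the G3BP1 RIP (4.49-fold lower, adjusted p = 0.000195; -1.61 without both arrays that stand apart). With arsenite it was -3.15 ± 0.37 and -1.64 ± 0.37 (adjusted p = 5.31e-06 and 0.00182). H1-2, a linker histone of most dividing cells, had signals of 11.53, 11.29 and 11.34 in input, 8.40, 8.22 and 8.23 in the TIAR RIP and 9.59, 9.72 and 8.69 in the G3BP1 RIP under DMSO, again without overlap. Its differences were -3.10 ± 0.23 and -2.61 ± 0.23 in the TIAR RIP (DMSO, arsenite; adjusted p = 3.55e-08 and 2.95e-07) and -2.06 ± 0.23 and -1.61 ± 0.23 in the G3BP1 RIP (adjusted p = 3.18e-06 and 3.26e-05).

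H1-10, the linker histone made from a polyadenylated mRNA, had differences of smaller size than the linker histones described above. Whether the tail plays a part was not tested. In the arsenite TIAR RIP H2AC16 and H2BC7 were nearer to input, at -0.43 and -0.73 against -1.01 for H1-10. In the arsenite G3BP1 RIP they were farther from it, at -0.999 and -0.88 against -0.31 for H1-10. H1-10 signals under DMSO were 9.23, 9.28 and 9.21 in input, 8.26, 8.24 and 8.23 in the TIAR RIP and 8.99, 9.12 and 8.75 in the G3BP1 RIP. All RIP arrays were below input, those of the G3BP1 RIP by the smaller step. The differences were -0.996 ± 0.10 and -1.01 ± 0.10 with TIAR (DMSO, arsenite; adjusted p = 1.37e-06 and 1.43e-06) and -0.29 ± 0.10 and -0.31 ± 0.10 in the G3BP1 RIP (adjusted p = 0.0365 and 0.0231). With arsenite the H1-10 call for G3BP1 was lost without input replicate 2 or 3 or G3BP1 RIP replicate 1 or 3 (adjusted p = 0.073, 0.0913, 0.0611 and 0.0711), and the difference was -0.40 without both arrays that stand apart and -0.73 with quantile normalization. Under DMSO the G3BP1 difference was -0.19 without both arrays and no longer called (adjusted p = 0.0601). The other somatic H1 genes, H1-1, H1-3 and H1-4, were lower in every comparison with input, with differences under DMSO of -1.73, -1.80 and -1.21 in the TIAR RIP and -0.67, -2.13 and -0.51 in the G3BP1 RIP, where H1-1 was -0.40 without both arrays that stand apart.

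All 11 H2A genes were lower in each of the 4 comparisons with input, although H2AC1 in the arsenite TIAR RIP was not called without both arrays that stand apart (adjusted p = 0.149). H2AC15 signals were 12.59, 12.59 and 12.92 in DMSO-treated input, 9.32, 9.49 and 9.43 in the TIAR RIP and 9.70, 9.68 and 9.21 in the G3BP1 RIP, so both RIPs lay well below input and close to each other. The differences were -3.28 ± 0.17 and -3.17 ± 0.17 (9.74-fold and 8.98-fold lower; adjusted p = 1.42e-09 and 2.44e-09), and -2.77 and -2.30 with arsenite. H2AC16 stood at the other end of the class in the TIAR RIP only. Its signals were 13.95, 13.96 and 13.91 in DMSO-treated input, 13.46, 13.48 and 13.45 in the TIAR RIP and 12.15, 12.25 and 11.87 in the G3BP1 RIP. The difference from input was -0.47 ± 0.10 for TIAR (adjusted p = 0.00112) and -1.85 ± 0.10 for G3BP1 (adjusted p = 2.65e-09). Under arsenite these were -0.43 ± 0.10 and -0.999 ± 0.10 (adjusted p = 0.00224 and 1.08e-06). H2AC12 and H2AC4 were among the genes with the largest differences in at least 1 comparison, H2AC12 at -2.67 in the arsenite TIAR RIP and -2.35 in the DMSO G3BP1 RIP, and H2AC4 at -1.81 in the arsenite G3BP1 RIP.

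H2B genes covered a wide range, from H2BC3 to members that did not differ from input by the test. H2BC3 had signals of 10.14, 9.71 and 10.24 in DMSO-treated input, 6.52, 6.61 and 4.95 in the TIAR RIP and 6.82, 6.86 and 4.59 in the G3BP1 RIP. Input was far above both RIPs, and the third array was the lowest in each RIP, that of the G3BP1 RIP being an array that stands apart. The differences were -4.00 ± 0.59 (16-fold lower, adjusted p = 4.62e-05) and -3.94 ± 0.59 (adjusted p = 6.02e-05; -3.19 without both arrays that stand apart), and with arsenite -3.94 ± 0.59 and -2.37 ± 0.59 (adjusted p = 5.51e-05 and 0.00389). H2BC4 was close behind in the TIAR RIP, -3.86 ± 0.43 under DMSO and -2.90 ± 0.43 with arsenite (adjusted p = 3.32e-06 and 5.94e-05), and was -2.47 ± 0.43 and -1.82 ± 0.43 in the G3BP1 RIP. H2BC7, the brightest H2B transcript cluster, differed by -0.69 ± 0.12 and -0.73 ± 0.12 in the TIAR RIP and -1.28 ± 0.12 and -0.88 ± 0.12 in the G3BP1 RIP (adjusted p = 0.000169, 0.000106, 4.85e-07 and 1.84e-05).

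H2BC21 and H2BC10, singled out after their values were seen, did not follow the other H2B genes in every comparison. H2BC10, and H2BC11 described below, lay among the dimmest 25% of transcript clusters by mean signal. Their signals may be partly background. H2BC21 signals were 7.70, 8.21 and 8.13 in DMSO-treated input, 8.18, 7.75 and 7.88 in the TIAR RIP and 6.60, 7.34 and 6.71 in the G3BP1 RIP. TIAR RIP and input overlapped, and the G3BP1 RIP lay below both. The TIAR differences of H2BC21 were -0.079 ± 0.24 and -0.17 ± 0.24 (adjusted p = 0.841 and 0.592), and those in the G3BP1 RIP -1.13 ± 0.24 and -1.21 ± 0.24 (adjusted p = 0.00123 and 0.000669). H2BC10 was at -1.91 ± 0.31 in the arsenite G3BP1 RIP (adjusted p = 0.000121) and at -0.87 ± 0.31 in the arsenite TIAR RIP (adjusted p = 0.0313), and under DMSO it was -0.78 ± 0.31 and -0.73 ± 0.31, neither past the test (adjusted p = 0.0569 and 0.0723; for G3BP1 0.021 without both arrays). H2BC5 and H2BC11 passed the test in 3 of the 4 comparisons and not in the DMSO TIAR RIP (-0.32 ± 0.22 and -0.14 ± 0.15), and H2BC5 was lost in the DMSO G3BP1 RIP without both arrays that stand apart (adjusted p = 0.0531).

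H3 genes, which encode the histone whose tail carries much of chromatin's marking, were lower in all comparisons except H3C12 in the arsenite TIAR RIP (-0.80 ± 0.33, adjusted p = 0.0612; -0.96 without both arrays that stand apart, adjusted p = 4.47e-05). H3C1 signals were 12.42, 12.32 and 12.40 in DMSO-treated input, 9.52, 9.30 and 8.63 in the TIAR RIP and 9.78, 9.86 and 8.38 in the G3BP1 RIP. Both RIPs lay below input on every array and overlapped each other; without both arrays that stand apart the G3BP1 difference was -2.56. H3C1 differed by -3.23 ± 0.32 and -3.21 ± 0.32 in the TIAR RIP and -3.04 ± 0.32 and -2.08 ± 0.32 in the G3BP1 RIP (adjusted p = 9.37e-07, 1.24e-06, 2.2e-06 and 8.42e-05). H3C10 was -3.38 ± 0.19 and -2.53 ± 0.19 in the TIAR RIP (adjusted p = 2.91e-09 and 7.9e-08). H3C7 was -3.03 in the TIAR RIP and -2.36 in the G3BP1 RIP under DMSO, and H3C12 was -2.37 in that G3BP1 RIP (-1.81 without both arrays that stand apart). H3C3, the brightest H3 transcript cluster, differed by -1.37 ± 0.19 and -1.54 ± 0.19 in the TIAR RIP and -1.63 ± 0.19 and -1.02 ± 0.19 in the G3BP1 RIP (adjusted p = 2.48e-05, 8.25e-06, 5.28e-06 and 0.000386).

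Of the 11 H4 genes, 10 were lower in each comparison, and H4C7, whose protein diverges from the common H4 protein, was not called. H4C9 signals were 9.77, 10.12 and 10.08 in DMSO-treated input, 7.73, 7.41 and 7.49 in the TIAR RIP and 7.72, 7.61 and 6.88 in the G3BP1 RIP. Input stood clear above both RIPs. Its differences were -2.45 ± 0.24 and -2.12 ± 0.24 in the TIAR RIP and -2.59 ± 0.24 and -2.25 ± 0.24 in the G3BP1 RIP (adjusted p = 7.7e-07, 3.77e-06, 5.67e-07 and 2.17e-06). H4C1 was -2.91 and -2.53 in the TIAR RIP and -2.27 and -1.95 in the G3BP1 RIP. H4C5, the brightest H4 transcript cluster, differed by -1.53 ± 0.14 and -1.07 ± 0.14 in the TIAR RIP and -1.16 ± 0.14 and -1.003 ± 0.14 in the G3BP1 RIP (adjusted p = 4.56e-07, 1.96e-05, 1.01e-05 and 3.77e-05). H4C7 had a mean signal over 18 arrays of 5.22, above 14.6% of transcript clusters, and its 4 differences ran from -0.15 to 0.33 (-0.39 with TIAR and arsenite when both arrays that stand apart were left out, adjusted p = 0.0366).

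Of the 5 germ-cell histones, 2 and 3 were called lower in the TIAR RIP (DMSO, arsenite) and 2 and 1 in the G3BP1 RIP. These are few genes, and 23.8%, 23.5%, 19.2% and 15.2% of all transcript clusters were lower in the same comparisons. H2AC1 was lower in all 4, with differences of -0.58 and -0.46 (-0.26 without both arrays that stand apart) in the TIAR RIP and -0.67 and -0.74 in the G3BP1 RIP. H1-6 was -1.30 and -0.50 in the TIAR RIP, -1.04 in the DMSO G3BP1 RIP and -0.34 (not called) in the arsenite G3BP1 RIP. In the arsenite TIAR RIP, where H1-6 was called (adjusted p = 0.0361), its arrays overlapped those of input, and the call was lost without both arrays that stand apart (adjusted p = 0.0737). H2BC1 was called only in the arsenite TIAR RIP (-0.62 ± 0.15, adjusted p = 0.0039; without both arrays also in the arsenite G3BP1 RIP, adjusted p = 0.0329), and its mean signal of 4.39 lay above 8.78% of transcript clusters. H1-7 and H1-8 passed no test, with differences between -0.41 and -0.05, but without both arrays H1-7 was called in the arsenite TIAR RIP and the DMSO G3BP1 RIP (adjusted p = 0.0431 and 0.0289). Genes in the last 2 sentences and H4C7 were named after their values were seen, to account for every gene that was not called.

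Some of the genes share an intergenic region with a partner. Among the 48 genes with a promoter entry 7 H2A and H2B pairs start in opposite directions 194 to 248 bases apart. Under DMSO both partners were lower in 5 of the 7 pairs in the TIAR RIP and in 6 of the 7 in the G3BP1 RIP. Of the 53 single genes, 84.9% and 90.6% were lower. A pair needs both partners lower, so pair and single-gene shares are not alike. H2AC15 and H2BC15, whose starts lie 194 bases apart, differed from input by -3.28 ± 0.17 and -1.18 ± 0.18 in the TIAR RIP. H2BC4 and H2AC6, 246 bases apart, differed by -3.86 ± 0.43 and -1.98 ± 0.17. H2AC11 was -1.17 ± 0.11 there and its partner H2BC11 -0.14 ± 0.15, while H2AC17 and H2BC17 lay close together at -1.51 ± 0.26 and -1.40 ± 0.12. The partners' differences come from different probes and were not tested against each other.

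Genes with related roles, whose mRNAs are mostly polyadenylated, were compared from lists of their roles. Of the 8 replication-independent core histone variants on the array, 5 were lower and 0 higher in the DMSO TIAR RIP (limma; median -0.51; 23.8% and 16.8% of all transcript clusters), against 2 lower and 1 higher in the DMSO G3BP1 RIP (median -0.17; 19.2% and 20.7% of all). H2AZ1, a variant of gene regulatory regions, was -0.99 ± 0.12 for TIAR (adjusted p = 5.19e-06) and -0.22 ± 0.12 for G3BP1 (adjusted p = 0.159). MACROH2A1, a variant enriched in silent chromatin, was -0.71 ± 0.15 and 0.64 ± 0.15 (adjusted p = 0.00147 and 0.00322), lower in the TIAR RIP and higher in the G3BP1 RIP. Of 19 genes active in S phase, 14 were lower and 1 higher in the DMSO TIAR RIP, and 2 lower and 9 higher in the DMSO G3BP1 RIP (medians -0.94 and 0.23), where 16.8% and 20.7% of all transcript clusters were higher in these RIPs. The replication helicase subunit gene MCM3 was 2.25 ± 0.15 in the G3BP1 RIP (adjusted p = 2.6e-08) and the thymidine kinase gene TK1 -2.37 ± 0.12 in the TIAR RIP (adjusted p = 1.37e-09).

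SLBP, the stem-loop binder, had input signals of 10.60, 10.48 and 10.51 under DMSO. It was -1.26 ± 0.15 and -0.80 ± 0.15 in the TIAR RIP (DMSO, arsenite; adjusted p = 4.35e-06 and 0.000359) and -0.053 ± 0.15 and 0.16 ± 0.15 in the G3BP1 RIP (adjusted p = 0.82 and 0.395), and TIAR RIP minus G3BP1 RIP was -1.21 ± 0.15 under DMSO (adjusted p = 4.06e-06). Of 14 genes of histone mRNA transcription and 3′ end processing, 8 were lower and 2 higher in the DMSO TIAR RIP and 2 lower and 7 higher in the DMSO G3BP1 RIP, where the shares of all transcript clusters were 23.8% and 16.8%, and 19.2% and 20.7%. For 19 genes of histone mRNA translation and decay these counts were 9 and 2, and 8 and 6. For 23 histone chaperones, which carry histones to DNA, they were 13 and 2, and 3 and 15. In the arsenite G3BP1 RIP 12 chaperones and 10 S phase genes were higher, where 29.3% of all transcript clusters and 0 of the 53 histone genes were (0 also at an unadjusted p under 0.05).

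The RIPs were then set against each other. The genes differed in which RIP had the lower signal. Under DMSO 6 of 53 were higher and 12 lower in the TIAR RIP than in the G3BP1 RIP, and with arsenite 3 higher and 15 lower (limma, adjusted p under 0.05). In this fit these shares, 11.3% and 22.6%, then 5.66% and 28.3%, did not exceed those of all transcript clusters (19.3% and 27.5%, then 15.6% and 28.7%). The split depended on scaling: with median centring, which takes out a shift of -0.19 under DMSO and -0.23 with arsenite, it was 16 higher and 8 lower under DMSO and 8 and 10 with arsenite. With quantile normalization it was 11 and 11, then 6 and 11, and without both arrays that stand apart 5 and 22, then 5 and 21. Shares of all transcript clusters under these settings are not given here, so these counts have no background beside them. Whether the histone shares exceed those of all transcript clusters under these settings was not tested.

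H1-5 had the lowest TIAR minus G3BP1 difference under DMSO and the next lowest after H2BC3 with arsenite, -2.23 ± 0.37 under DMSO and -1.50 ± 0.37 with arsenite (adjusted p = 9.36e-05 and 0.00312). Other genes lower in the DMSO TIAR RIP were H2BC4 (-1.39), H3C10 (-1.26), H1-1 (-1.06), H1-2 (-1.05), H2AC6 (-0.73), H1-10 (-0.71) and H1-4 (-0.70). Of all 12 genes called lower, 5 encode linker histones. That is 5 of the 9 H1 genes (55.6%), where 27.5% of all transcript clusters were lower. The H2BC4 arrays of the 2 RIPs overlapped, and its call was lost without TIAR RIP replicate 3 or G3BP1 RIP replicate 1 or 2 (adjusted p = 0.0722, 0.0588 and 0.0815). With arsenite the largest were H2BC3 (-1.57), H1-5, H2AC12 (-1.36), H3C1 (-1.14), H3C10 (-1.01), H1-2 (-1.004), H3C7 (-0.86) and H2AC8 (-0.73). The H2BC3 and H2AC8 calls were each lost in 5 of 18 fits that left out 1 array, with adjusted p up to 0.119 and 0.14.

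In the other direction, H2AC16 signals were 13.46, 13.48 and 13.45 in the DMSO TIAR RIP against 12.15, 12.25 and 11.87 in the DMSO G3BP1 RIP, without overlap. The difference was 1.37 ± 0.10 (2.59-fold higher with TIAR, adjusted p = 1.51e-08) and 0.57 ± 0.10 with arsenite (adjusted p = 0.000195). H2BC21 was higher with TIAR by 1.05 ± 0.24 and 1.04 ± 0.24 (adjusted p = 0.00159 and 0.00196). Under DMSO H3C12 was higher by 1.30 ± 0.33 (adjusted p = 0.0037; 0.0614 with only the groups compared), with the third G3BP1 RIP array at 8.13 against 9.79 and 9.85, and by 0.73 without both arrays that stand apart (adjusted p = 0.00034). H2BC7 (0.59), H2AC21 (0.57; 0.38 without both arrays that stand apart) and H2BC11 (0.42) were also called higher. The H2BC11 call was lost without TIAR RIP replicate 2 or 3 or G3BP1 RIP replicate 3 (adjusted p = 0.0932, 0.0729 and 0.134). With arsenite H2BC10 was higher with TIAR by 1.03 ± 0.31 (adjusted p = 0.012; lost without G3BP1 RIP replicate 1, adjusted p = 0.0726). Both H2BC10 and H2BC11 were among the dimmest 25% of transcript clusters.

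**Figure D3:**
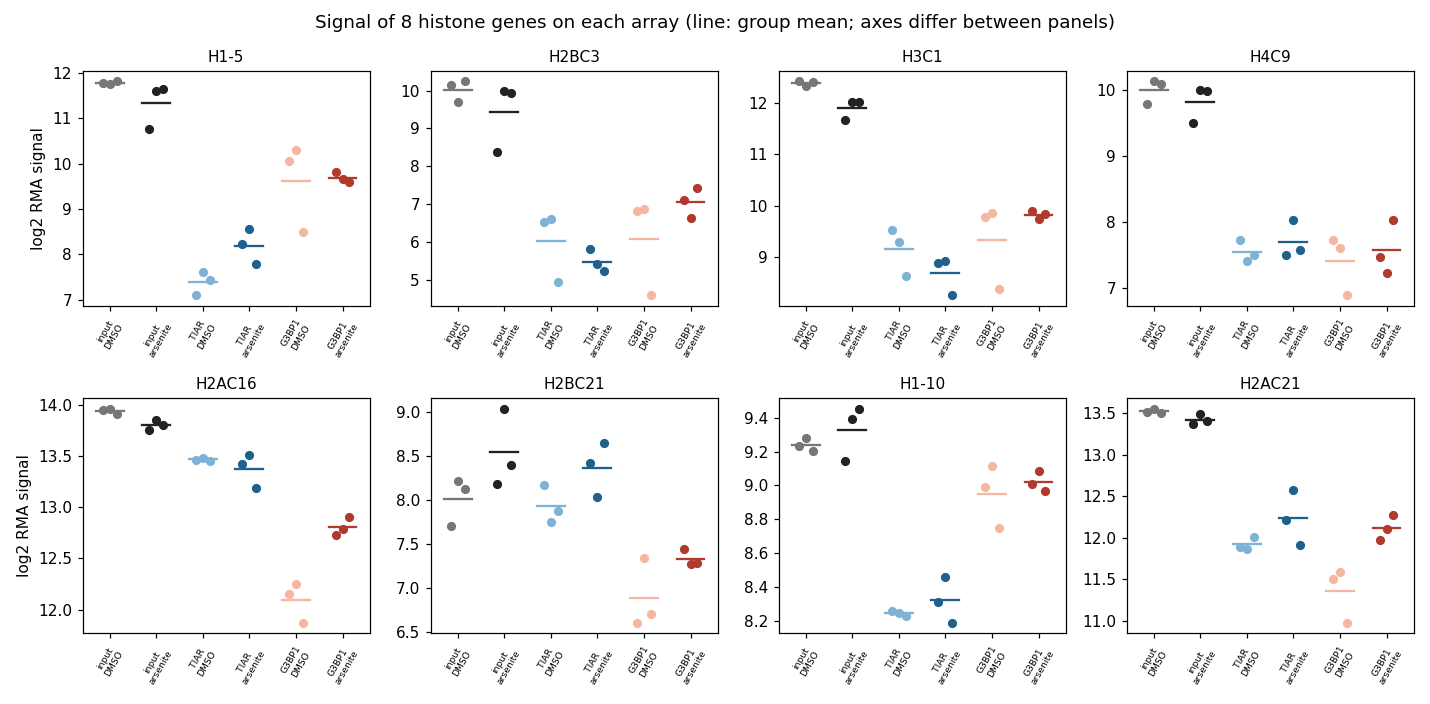
Log2 RMA signal of 8 histone genes on each of the 18 arrays (points) with group means (lines), for the 3 kinds of RNA under DMSO or arsenite; the y axes differ between panels. H1-5, H2BC3, H3C1 and H4C9 are highest in input in every panel, H2AC16 and H2BC21 are lowest in the G3BP1 RIP, and H1-10 is lowest in the TIAR RIP.

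Few histone mRNAs passed the test for a change with arsenite. In input, which shows the lysate as a whole, 2 of 53 rose and 3 fell after 30 min (limma, adjusted p under 0.05), where 2.52% and 11.2% of all transcript clusters did (13.7% in all), and the median change was -0.11 against -0.031 over all. The 9.43% of histone genes called was below that background. By arrays, all 3 arsenite arrays lay below all 3 DMSO arrays for 20 of 53 genes, and above for 4. Over all 22011 transcript clusters these counts were 5573 and 1979. By this measure the share below was larger among histone genes than among all transcript clusters, and the share above was smaller. That difference in shares was not tested. In lysate of a culture, fewer cells that make histone mRNA and less of it per cell cannot be told apart. H3C7 signals in input were 12.82, 12.92 and 12.89 with DMSO and 11.75, 11.83 and 11.82 with arsenite, without overlap, a fall of 1.08 ± 0.24 (adjusted p = 0.00789). H1-1 went from 8.45, 8.44 and 8.73 to 7.61, 7.97 and 7.85, a fall of 0.73 ± 0.18 (adjusted p = 0.0151; lost without arsenite replicate 1 or DMSO replicate 3, adjusted p = 0.0631 and 0.0726). H1-6 fell by 0.69 ± 0.18 (adjusted p = 0.0208; the call held in 15 of 18 fits that left out 1 array, and without arsenite replicate 3 the change was -0.46, adjusted p = 0.0757).

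The rises in input were less firm. H2BC10 went from 4.25, 4.94 and 4.49 to 5.54, 5.34 and 5.75 and rose by 0.98 ± 0.31 (adjusted p = 0.047). Its signal was among the dimmest 25% of transcript clusters. H2AC11 went from 9.15, 9.28 and 9.12 to 9.56, 9.52 and 9.54 and rose by 0.36 ± 0.11 (adjusted p = 0.0458). Each call held in only 5 of the 18 fits that left out 1 array, with adjusted p up to 0.173 and 0.145, and neither held without both arrays that stand apart (adjusted p = 0.0553 and 0.0632). Of the genes described above, H1-2 (-0.26 ± 0.23), H1-10 (0.091 ± 0.10), H2AC16 (-0.14 ± 0.10), H2BC7 (0.0069 ± 0.12), H3C3 (-0.024 ± 0.19) and H4C5 (0.00039 ± 0.14) did not pass the test in input. H1-10 passed it with quantile normalization only (0.33, adjusted p = 0.013).

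**Figure D4:**
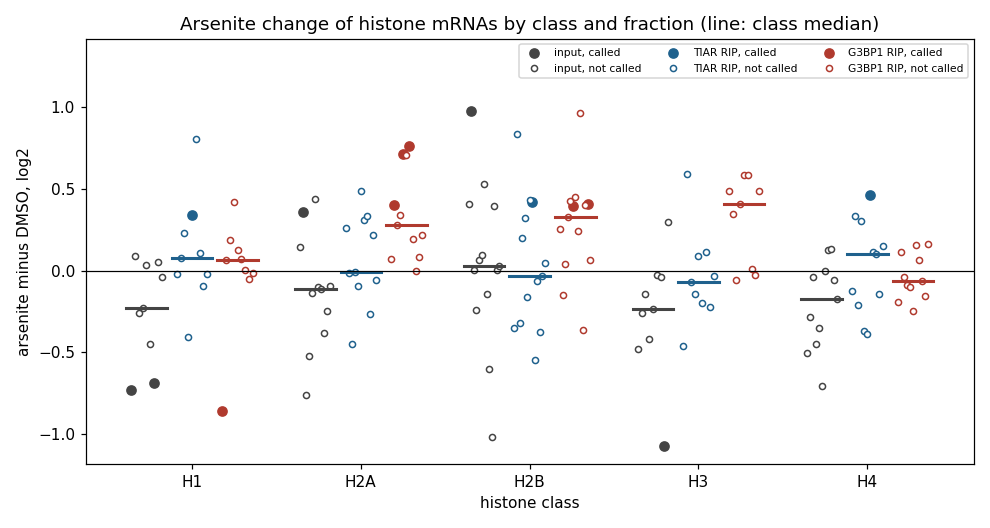
Log2 change with arsenite (arsenite minus DMSO, y axis) of each histone gene, by class (x axis), in input (grey), TIAR RIP (blue) and G3BP1 RIP (red); filled points passed the test and short lines are class medians. Most points lie within 1 of 0, and the medians run from -0.23 (H3, input) to 0.41 (H3, G3BP1 RIP).

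In the TIAR RIP 3 of 53 rose with arsenite and 0 fell (6.15% and 5.71% of all transcript clusters; 2 were lower at an unadjusted p under 0.05), and the median change was -0.014. The 5.66% of histone genes that rose is near the background. By arrays, 9 of 53 genes lay wholly above DMSO and 3 wholly below, against 3367 and 3554 of 22011 transcript clusters. The histone share above was slightly larger than that of all, and the share below smaller, which was not tested. H4C5 signals were 11.63, 11.68 and 11.66 with DMSO and 12.21, 12.29 and 11.86 with arsenite, without overlap, a rise of 0.46 ± 0.14 (adjusted p = 0.0476). H2BC26 went from 8.15, 8.32 and 8.37 to 8.73, 8.86 and 8.50, a rise of 0.42 ± 0.12 (adjusted p = 0.0365). H1-4 went from 12.80, 12.74 and 12.71 to 13.15, 13.27 and 12.85, a rise of 0.34 ± 0.091 (adjusted p = 0.0224). The arrays of each of these genes separated by treatment, yet the calls held in only 5 of 18, 12 of 18 and 14 of 18 fits that left out 1 array (adjusted p up to 0.187, 0.159 and 0.114). Without both arrays that stand apart, 8 genes were called, a count for which the share of all transcript clusters is not given here. The changes of H1-2 (0.23 ± 0.23), H1-10 (0.076 ± 0.10), H2AC16 (-0.094 ± 0.10), H2BC7 (-0.031 ± 0.12) and H3C3 (-0.20 ± 0.19) did not pass the test.

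More moved in the G3BP1 RIP, where 5 of 53 rose and 1 fell (10.4% and 4.08% of all transcript clusters), again no larger a share than the background, with a median change of 0.16. Without both arrays that stand apart the median was 0.0072, and 3 rose and 4 fell, with H2AC11 and H2BC17 lost and H4C1, H4C2 and H4C4 gained as lower. The shares of all transcript clusters in that fit are not given here. With every array kept, 16 of 53 genes had their arsenite arrays wholly above DMSO and 1 wholly below. Over all 22011 transcript clusters these counts were 4001 and 1883. By this measure the share above was larger among histone genes than among all transcript clusters, and the share below was smaller. That difference in shares was not tested. H2AC21 signals were 11.50, 11.58 and 10.98 with DMSO and 11.97, 12.10 and 12.28 with arsenite, a rise of 0.76 ± 0.16 (adjusted p = 0.00435; 0.58 without both arrays that stand apart). H2AC16 went from 12.15, 12.25 and 11.87 to 12.73, 12.78 and 12.90, a rise of 0.71 ± 0.10 (adjusted p = 0.000217). These 2 calls held in all 18 fits that left out 1 array, but that of H2AC21 was lost with only the groups compared (adjusted p = 0.0761), and both sets of arrays separated by treatment. H2BC7 rose by 0.41 ± 0.12, H2AC11 by 0.40 ± 0.11 and H2BC17 by 0.40 ± 0.12 (adjusted p = 0.0286, 0.026 and 0.0379), in 13 of 18, 13 of 18 and 11 of 18 such fits (adjusted p up to 0.122, 0.0832 and 0.149).

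H1-1 was the only histone gene called lower in the arsenite G3BP1 RIP. Its signals were 8.01, 8.28 and 7.33 with DMSO and 7.10, 7.01 and 6.93 with arsenite, without overlap, and it fell by 0.86 ± 0.18 (adjusted p = 0.00499; -1.13 without both arrays that stand apart; lost with only the groups compared, adjusted p = 0.107). H4 had 0 of 11 genes called in either direction in this comparison (limma; 14.5% of all transcript clusters), and 0 higher and 0 lower at an unadjusted p under 0.05. Without both arrays that stand apart, however, H4C1, H4C2 and H4C4 were called lower. The changes of H1-2 (0.19 ± 0.23), H1-10 (0.068 ± 0.10), H3C3 (0.58 ± 0.19) and H4C5 (0.16 ± 0.14) did not pass the test. H3C3 was near the threshold (adjusted p = 0.0505), was called under 9 of 27 alternatives (adjusted p down to 0.0179) and was 0.35 without both arrays that stand apart (adjusted p = 0.159).

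Whether a RIP changed with arsenite differently from input was tested as an interaction. For the TIAR RIP 0 of 53 genes passed in limma (0.654% of all transcript clusters, 0.604% upward and 0.05% downward), with 12 higher and 3 lower at an unadjusted p under 0.05. H1-5, whose difference between TIAR RIP and input was -4.40 under DMSO and -3.15 with arsenite, had an interaction of 1.25 ± 0.52 (adjusted p = 0.318). For the G3BP1 RIP 5 of 53 changed upward beyond input and 0 downward (14.3% and 2.65% of all; 1 downward at an unadjusted p under 0.05): H3C7, H2AC21, H2AC15, H2AC16 and H2BC14. Each of these was still below input with arsenite, H2AC16 at -0.999 after -1.85 under DMSO and H2AC21 at -1.30 after -2.17. Between the RIPs, H1-1 changed upward, and H2AC16 and H2BC17 downward, in the TIAR RIP relative to the G3BP1 RIP (5.05% and 8.55% of all). All these shares lie below the background of their comparison.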

How the data were processed

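RNA from input lysate, TIAR RIP and G3BP1 RIP was measured on 18 Affymetrix exon arrays in 6 groups of 3. The deposited values are log2 signals, 1 per transcript cluster, that the authors made with RMA in Affymetrix Expression Console, per the submitters' processing notes; neither versions nor joint normalisation of the arrays is stated in the labels. RMA evens out the distribution of signals, so a shift of all RNAs would be reduced, and the number of arrays limits the precision. Transcript clusters (22011) were named from GEO's platform table: 14432 had 1 symbol, 2408 several and 5171 none. All 53 histone genes matched RefSeq by gene ID and 0 symbols changed. H3-3A and H3-3B were not analysed here.

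A model of 6 group means was fitted to all transcript clusters by limma 3.58.1 under R 4.3.3 (lmFit, then eBayes; 12 residual and 2.61 prior degrees of freedom), with no filter, and two-sided p-values were adjusted by Benjamini-Hochberg within each of 12 comparisons, with adjusted p under 0.05 called. Errors of differences are standard errors of the fit. On simulated data for arsenite in the TIAR RIP (22011 transcript clusters), 72 of 100 changes of 1 on the log2 scale and 97 of 100 changes of 2 were recovered, with 10 false calls. The simulated transcript clusters otherwise had 1 mean for all groups, independent normal errors and no array that stands apart. These rates need not hold for the real arrays. p-values measure the spread between arrays labelled biological replicates. In each comparison the text names up to 8 called histone genes with the largest difference in each direction, always H1-2, H1-10 and the brightest gene of each core class in the arsenite and the arsenite RIP comparisons, and of other lists called genes with small p and SLBP; exceptions are stated. The histone genes, lists, rule and alternatives were chosen with earlier results of these data known. The alternatives were a replicate block, only the groups compared, array weights, an intensity trend plus robust prior, omission of the dimmest 25% of transcript clusters, median centring, quantile normalization, averaging transcript clusters of 1 gene (no histone gene had several), leaving out each array, and leaving out both arrays that stand apart. Promoter windows and strands come from RefSeq on GRCh38.p14.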

Additional observations from a re-analysis of the deposited data

Results flagged for a closer look

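The arsenite change in the G3BP1 RIP differed from that in input, by an interaction test in limma, for H3C7 (1.05 ± 0.34, log2 ± SE; adjusted p = 0.048), H2AC21 (0.87 ± 0.23; adjusted p = 0.0158), H2AC15 (0.86 ± 0.24; adjusted p = 0.021), H2AC16 (0.85 ± 0.14; adjusted p = 0.000812) and H2BC14 (0.57 ± 0.16; adjusted p = 0.0202). The single changes behind these were -0.027 in the G3BP1 RIP and -1.08 in input for H3C7, 0.76 and -0.10 for H2AC21, 0.34 and -0.52 for H2AC15, 0.71 and -0.14 for H2AC16, and 0.33 and -0.24 for H2BC14. Without both arrays that stand apart the G3BP1 RIP changes of H3C7 and H2AC15 were -0.41 and 0.18. Of these genes, H3C7 passed the test as a fall in input, H2AC16 and H2AC21 as rises in the G3BP1 RIP, and the others in neither. The H2AC16 and H2AC21 calls held in all 18 fits that left out 1 array and without both arrays that stand apart (0.71 and 0.66; adjusted p = 0.00108 and 0.0364). H2AC15 was lost without DMSO input replicate 3 (adjusted p = 0.0598) and without both arrays that stand apart (0.54, adjusted p = 0.0615). H3C7 held in 5 of 18 such fits (adjusted p up to 0.093) and was 0.64 without both arrays (adjusted p = 0.0537). H2BC14 was lost without DMSO input replicate 1 or arsenite G3BP1 RIP replicate 1 (adjusted p = 0.0569 and 0.052), with median centring, and with quantile normalization (0.26, adjusted p = 0.243). H3C7 was also lost with quantile normalization and with only the groups compared.

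The arsenite change in the TIAR RIP differed from that in the G3BP1 RIP for H1-1 (0.84 ± 0.26; adjusted p = 0.044), H2AC16 (-0.81 ± 0.14; adjusted p = 0.00135) and H2BC17 (-0.56 ± 0.17; adjusted p = 0.0411). H1-1 changed by -0.018 in the TIAR RIP and -0.86 in the G3BP1 RIP, H2AC16 by -0.094 and 0.71, and H2BC17 by -0.16 and 0.40. The H2AC16 call held in all 18 fits that left out 1 array, that of H1-1 in 3 and that of H2BC17 in 7 (adjusted p up to 0.105 and 0.102). Without both arrays that stand apart the values were 1.12, -0.70 and -0.46 (adjusted p = 0.0002, 0.000652 and 0.0516). H1-1 and H2BC17 were also lost with the replicate block and with only the groups compared, and H2BC17 with array weights and quantile normalization.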

How the results depend on the processing

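Against input, the counts of called histone genes stayed between 42 and 50 of 53 in the 4 comparisons under every alternative tried, with at most 1 gene called higher. The genes named there by the rule, for the largest differences or always, kept their direction in all 1160 values. They kept their call in 1155, H1-10 in the arsenite G3BP1 RIP being the exception. Calls outside that rule were less stable. Without both arrays that stand apart, H2AC1, H1-6, H2BC5 and, under DMSO, H1-10 each lost a call. H3C12, H1-7, H2BC1, H2BC10 and H4C7 gained calls. The counts for arsenite moved more, and the cause was not tested. Shares of all transcript clusters under the alternatives are not given here, so the counts below have no background beside them. With array weights they were 14 in the TIAR RIP, 13 in the G3BP1 RIP and 11 in input (3, 6 and 5 as reported), 29 for TIAR against G3BP1 under DMSO (18), and 5 and 11 for the TIAR change beyond input and beyond G3BP1 (0 and 3). Without both arrays that stand apart they were 8 in the TIAR RIP, 2 beyond input and 6 beyond G3BP1. With only the groups compared they were 1 in the G3BP1 RIP and 1 beyond G3BP1. Quantile normalization gave 10 in input, 3 for the G3BP1 change beyond input (5) and 5 beyond G3BP1, median centring gave 1 and 6 for the TIAR change beyond input and beyond G3BP1, and leaving out the dimmest 25% gave 5 for the last. Leaving out 1 array gave 0 to 6 in the TIAR RIP, 3 to 8 in the G3BP1 RIP and 2 to 9 in input, 14 to 26 and 12 to 26 for TIAR against G3BP1 (DMSO, arsenite), and 0 to 3, 3 to 7 and 1 to 6 for the changes of TIAR beyond input, G3BP1 beyond input and TIAR beyond G3BP1.

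No called histone gene changed sign, among all 53 genes or the 45 that the dim filter left. Signs turned for uncalled named genes only, and the ranges when 1 array was left out are given last. For arsenite in the G3BP1 RIP these were H1-2, H1-10 and H4C5 without both arrays that stand apart or without DMSO replicate 3 (-0.13, -0.033 and -0.044), H1-2 and H4C5 with array weights (-0.089 and -0.048) and H1-10 with quantile normalization (-0.018). In input they were H3C3 with median centring (0.072) and without both arrays or arsenite replicate 1 (0.0019), H2BC7 with quantile normalization (-0.011) and without arsenite replicate 2 or DMSO replicate 3 (-0.031 and -0.0022), and H4C5 with array weights (-0.0061) and without arsenite replicate 3 or DMSO replicate 1 (-0.02 and -0.028). In the TIAR RIP without arsenite replicate 3, H2BC7 was 0.14 and H3C3 0.033. With 1 array left out, H2BC7 ran from -0.15 to 0.14 and H3C3 from -0.37 to 0.033 in the TIAR RIP, H1-2 from -0.13 to 0.38, H1-10 from -0.033 to 0.15 and H4C5 from -0.044 to 0.27 in the G3BP1 RIP, and H2BC7 from -0.031 to 0.039, H3C3 from -0.043 to 0.0019 and H4C5 from -0.028 to 0.018 in input.

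Samples share only a replicate number: in no comparison did every same-numbered pair of deviations correlate above 0.1. With the replicate block the counts were 3, 6 and 5 for arsenite in the TIAR RIP, the G3BP1 RIP and input, 45, 47, 49 and 48 against input, 17 and 18 for TIAR against G3BP1, and 0, 5 and 2 for the interactions. A dim signal may be background, and no detection call was used here.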
